A study of Mus musculus with 2 samples.

Results

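The genes described here are 35 mouse genes whose transcripts follow the cell division cycle, in a list of 14 genes of S phase and a list of 21 genes of G2 and mitosis (G2/M), out of 33696 genes in the deposited matrices. The members were chosen by symbol for the phase in which each is known to act, with earlier results of these data known, and all 35 were found. They were followed in tumour cells, CD8 T cells, NK cells and macrophages of CT26 tumours, which grow from a mouse colon carcinoma line. Single-cell RNA sequencing was run on 2 libraries of subcutaneous CT26 tumours from male BALB/c mice aged 6 to 8 weeks. One library came from untreated mice (UT), and the other from mice given BUP-Gel (BUP), a hydrogel that carried the local anaesthetic bupivacaine at 40 mg/kg. No library of a gel without drug was used here, so the gel and the drug cannot be told apart. Each library was a pool of live cells from 3 tumours, in which sorted CD45+ (immune) cells and CD45- cells had been mixed, by the labels, at 4 parts to 1, while the study's methods give another ratio. With 1 library per group there was no test between UT and BUP. Every interval is at 95%, and none covers differences between mice, tumours or library preparations. Intervals of summed UMIs cover counting error only, as if each UMI were drawn alone. They leave out which cells were drawn, and dividing cells hold several UMIs of a list each, so these intervals are too narrow for that. Intervals of shares of cells cover the draw of cells.

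Cells that divide copy their DNA in S phase and segregate it in mitosis, and the genes of both steps are switched on in sequence. Among the S-phase members, the Mcm2 to Mcm7 proteins form the helicase that is loaded onto replication origins, Cdc6 helps to load it, Cdc45 and Gins2 activate it, Pcna is the sliding clamp of the polymerases, Tyms, Rrm1 and Rrm2 supply deoxynucleotides, and Uhrf1 carries DNA methylation onto the new strand. E2F factors drive many of these genes. The G2/M members include the kinase Cdk1 with its cyclins Ccna2, Ccnb1 and Ccnb2 and its activating phosphatase Cdc25c, the mitotic kinases Plk1, Aurka, Aurkb and Bub1, the spindle and kinetochore proteins Tpx2, Kif11, Nusap1, Hmmr, Nuf2, Cenpe and Cenpf, Birc5 of the chromosomal passenger complex, the chromosome proteins Mki67 and Top2a, and Cdc20 and Ube2c of the machinery that ends mitosis. Many of them share a promoter element called CHR and several CCAAT boxes. In a tumour these transcripts mark dividing carcinoma cells as well as T cells, NK cells and macrophages that divide in the tissue.

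The letters of known promoter elements were counted in both lists, and a pair of promoters from each is printed to show them. The 250 bases before the start of each gene's main transcript were read from the GRCm39 genome with the GENCODE M39 annotation, and both strands were searched for TTTGAA (CHR), CCAAT, and TTTGGCGC, TTTCCCGC, TTTCGCGC or TTTGCCGC (E2F). CHR letters stood in 6 of 21 G2/M promoters (28.6%) and 1 of 14 S-phase promoters (7.14%), against 15.6% of 21757 protein-coding genes. A CCAAT box stood in more of the S-phase promoters by share, 9 of 14 (64.3%) against 10 of 21 of G2/M (47.6%), with 36.5% of all. At least 2 CCAAT boxes stood in 9 of the G2/M promoters (42.9%) and 3 of the S-phase promoters (21.4%), against 10.8% of all. E2F letters stood in 3 of the S-phase promoters (21.4%), those of *Mcm4*, *Mcm5* and *Mcm6*, and in that of *Cdk1* among the G2/M genes (4.76%), against 2.28% of all. The windows printed overlap no annotated exon and lie directly before the gene, at chr16:15455265-15455514 on the minus strand for *Mcm4*, chr8:75835890-75836139 on the plus strand for *Mcm5*, chr9:70328875-70329124 on the minus strand for *Ccnb2* and chr11:68936217-68936466 on the plus strand for *Aurkb*. Each is written 5′ to 3′ on the strand of its gene, with the matches on either strand in capitals. Between the CHR letters and the start lie 123 bases in *Ccnb2* and 113 bases in *Aurkb*. The windows end at the start, so elements at or after it were not searched, and no match was tested for function. The windows of *Mcm7*, *Pcna*, *Rrm2*, *Nusap1*, *Cdc25c* and *Nuf2*, not printed, lie wholly within annotated exons. In *Mcm5* an E2F match on the printed strand and one on the opposite strand overlap and read as 1 run of capitals. In *Aurkb* the CHR letters lie on the opposite strand and read as TTCAAA, and in *Mcm4* the CCAAT box reads as ATTGG.
Mcm4: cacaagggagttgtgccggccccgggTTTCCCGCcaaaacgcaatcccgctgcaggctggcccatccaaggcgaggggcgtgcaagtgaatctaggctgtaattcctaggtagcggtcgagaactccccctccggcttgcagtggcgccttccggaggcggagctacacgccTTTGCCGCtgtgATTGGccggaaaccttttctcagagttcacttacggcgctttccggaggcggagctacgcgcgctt
Mcm5: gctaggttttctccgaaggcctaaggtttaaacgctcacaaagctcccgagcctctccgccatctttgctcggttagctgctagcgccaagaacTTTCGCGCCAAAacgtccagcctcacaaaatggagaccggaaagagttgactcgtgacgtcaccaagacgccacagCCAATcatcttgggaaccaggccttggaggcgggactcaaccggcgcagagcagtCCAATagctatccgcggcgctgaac
Ccnb2: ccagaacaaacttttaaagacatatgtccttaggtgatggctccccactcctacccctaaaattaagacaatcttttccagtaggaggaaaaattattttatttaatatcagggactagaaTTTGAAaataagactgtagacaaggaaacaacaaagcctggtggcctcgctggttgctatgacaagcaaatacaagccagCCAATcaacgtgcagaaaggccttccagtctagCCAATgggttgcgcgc
Aurkb: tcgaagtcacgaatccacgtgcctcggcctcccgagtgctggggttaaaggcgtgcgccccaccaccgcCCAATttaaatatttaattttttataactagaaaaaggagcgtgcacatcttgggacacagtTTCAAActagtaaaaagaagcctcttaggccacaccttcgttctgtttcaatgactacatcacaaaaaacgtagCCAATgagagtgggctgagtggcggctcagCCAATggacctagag

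Depth was 83228442 UMIs (unique molecular identifiers, each 1 counted transcript) over 7556 barcodes in UT and 89918925 over 7221 in BUP. After filtering 7163 and 6776 cells remained, and the 35 genes took 120225 and 111213 UMIs. The libraries shared 76 barcode sequences. Cells were clustered with the cell-cycle genes, the members among them, left out. This did not free the clusters of the cycle, since 1 cluster of T and NK cells was still set apart by division, with *Pclaf* and *Mki67* among its leading genes. Non-immune tumour cells formed a cluster with *Krt20* among its leading genes (522 UT and 710 BUP cells, Krt20 tumour) and a cluster led by *Ogn* (560 and 1625 cells, Ogn tumour). Transcripts of the Y-linked host genes *Ddx3y*, *Eif2s3y*, *Kdm5d* and *Uty* summed to between 0.950 and 4.20 UMIs per 1e+06 UMIs of the class (CPM) in these clusters and to between 118 and 242 CPM in the T, NK and macrophage clusters and the fibroblast-like cells, so both were taken as tumour cells. In the Ogn tumour cells the fibroblast list summed to 2485 and 1897 CPM, against 44440 and 26187 CPM in the fibroblast-like cells. CD8 T-like cells (436 and 702), NK-like cells (538 and 394) and macrophage-like cells in 3 clusters led by *C1qa* (C1q; 1225 and 491), *Cxcl3* (1333 and 824) and interferon-induced genes (191 and 68) were named from their markers. Neutrophils, which do not divide after they leave the marrow, gave the background, with 165 CPM in UT and 90.4 CPM in BUP for the S-phase genes summed and 158 and 95.9 CPM for the G2/M genes summed. This background was itself lower in BUP, with log2 ratios of -0.86 (-1.22 to -0.52) for S phase and -0.72 (-1.07 to -0.38) for G2/M. Its part in the differences between the libraries was not tested. Neutrophil-like cells were shallow, with medians of 1882 and 2127 UMIs. The Ogn tumour cells had 14680.5 and 14456 UMIs, and the Cxcl3 macrophage-like cells 7632 and 8054. CPM divides by that total, so an equal number of stray UMIs per cell gives a higher CPM in neutrophil-like cells. Their CPM is therefore a reference level and not a floor for deeper cells.

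Within each library, the classes of cells differed widely in cycle transcripts. The S-phase genes summed to 1084 CPM in UT and 1091 CPM in BUP in the Krt20 tumour cells and to 1290 and 1124 CPM in the CD8 T-like cells. NK-like cells had 841 and 767 CPM, and C1q macrophage-like cells 523 and 348 CPM. The Ogn tumour cells had 285 and 248 CPM. The Cxcl3 macrophage-like cells, at 143 and 151 CPM, were above the neutrophil background in BUP. In UT they were below it by value only, since the intervals overlapped (136 to 150 against 144 to 188 CPM). For the G2/M genes the order was CD8 T-like (2380 and 2702 CPM), Krt20 tumour (1444 and 1234 CPM), NK-like (997 and 1119 CPM) and C1q macrophage-like (919 and 606 CPM). The CD8 T-like and NK-like classes shared 1 cluster of dividing cells. It gave 114 UT and 212 BUP cells to the former and 34 and 39 cells to the latter. The Ogn tumour cells (67.9 and 55.0 CPM) and the Cxcl3 macrophage-like cells (73.9 and 58.8 CPM) were below the neutrophil background in the G2/M genes in both libraries. Since the neutrophil-like cells were shallower, this does not show that these cells hold only stray G2/M transcripts. The counting intervals of neighbours in this G2/M order did not overlap down to the C1q macrophage-like cells, and the closest pair was NK-like cells (966 to 1029 CPM) and C1q macrophage-like cells (904 to 933 CPM) of UT. Ogn tumour and Cxcl3 macrophage-like cells could not be ordered, since their intervals overlapped in both libraries.

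**Figure D1:**
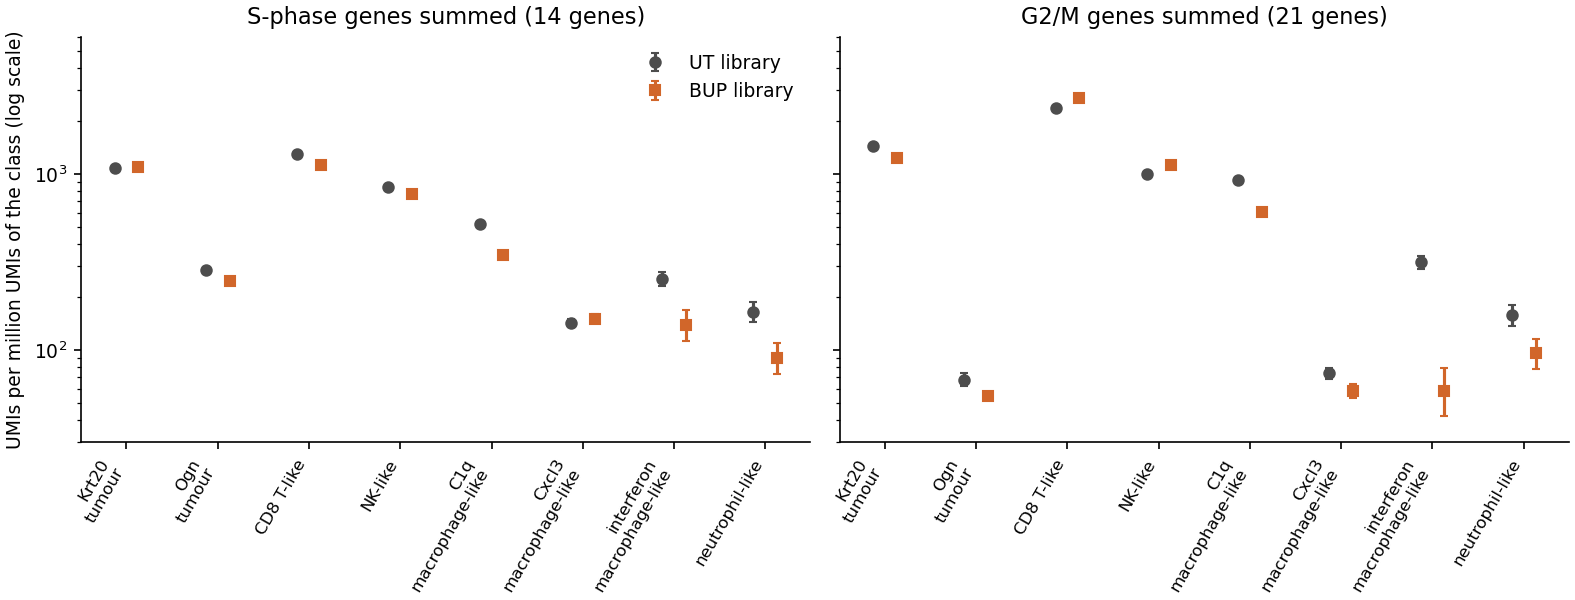
Level of the S-phase and the G2/M genes, summed, in each class of cells of the UT and BUP libraries, in CPM on a log scale; bars are exact 95% Poisson intervals for counting error. The G2/M genes were highest in CD8 T-like cells (2380 and 2702 CPM) and lowest in UT in Ogn tumour cells (67.9 CPM).

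The G2/M genes had 1 class in common as their highest in BUP, as did most of them in UT, and the S-phase genes did not. Of the 21 G2/M genes, 18 in UT and all 21 in BUP had their highest level in the CD8 T-like cells among 7 classes, with *Cdc20*, *Cdc25c* and *Aurka* highest in the Krt20 tumour cells of UT. The 14 S-phase genes divided between the CD8 T-like cells (9 in UT and 8 in BUP) and the Krt20 tumour cells (5 and 6). *Mcm2*, *Mcm6*, *Mcm7*, *Gins2* and *Cdc45* were highest in Krt20 tumour cells in both libraries. The summed G2/M level was 1.85 times the summed S-phase level in CD8 T-like cells of UT and 2.40 times in BUP, 1.33 and 1.13 times in Krt20 tumour cells, and 0.239 and 0.222 times in Ogn tumour cells. C1q macrophage-like cells had about the same ratio in both libraries, 1.76 and 1.74.

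**Figure D2:**
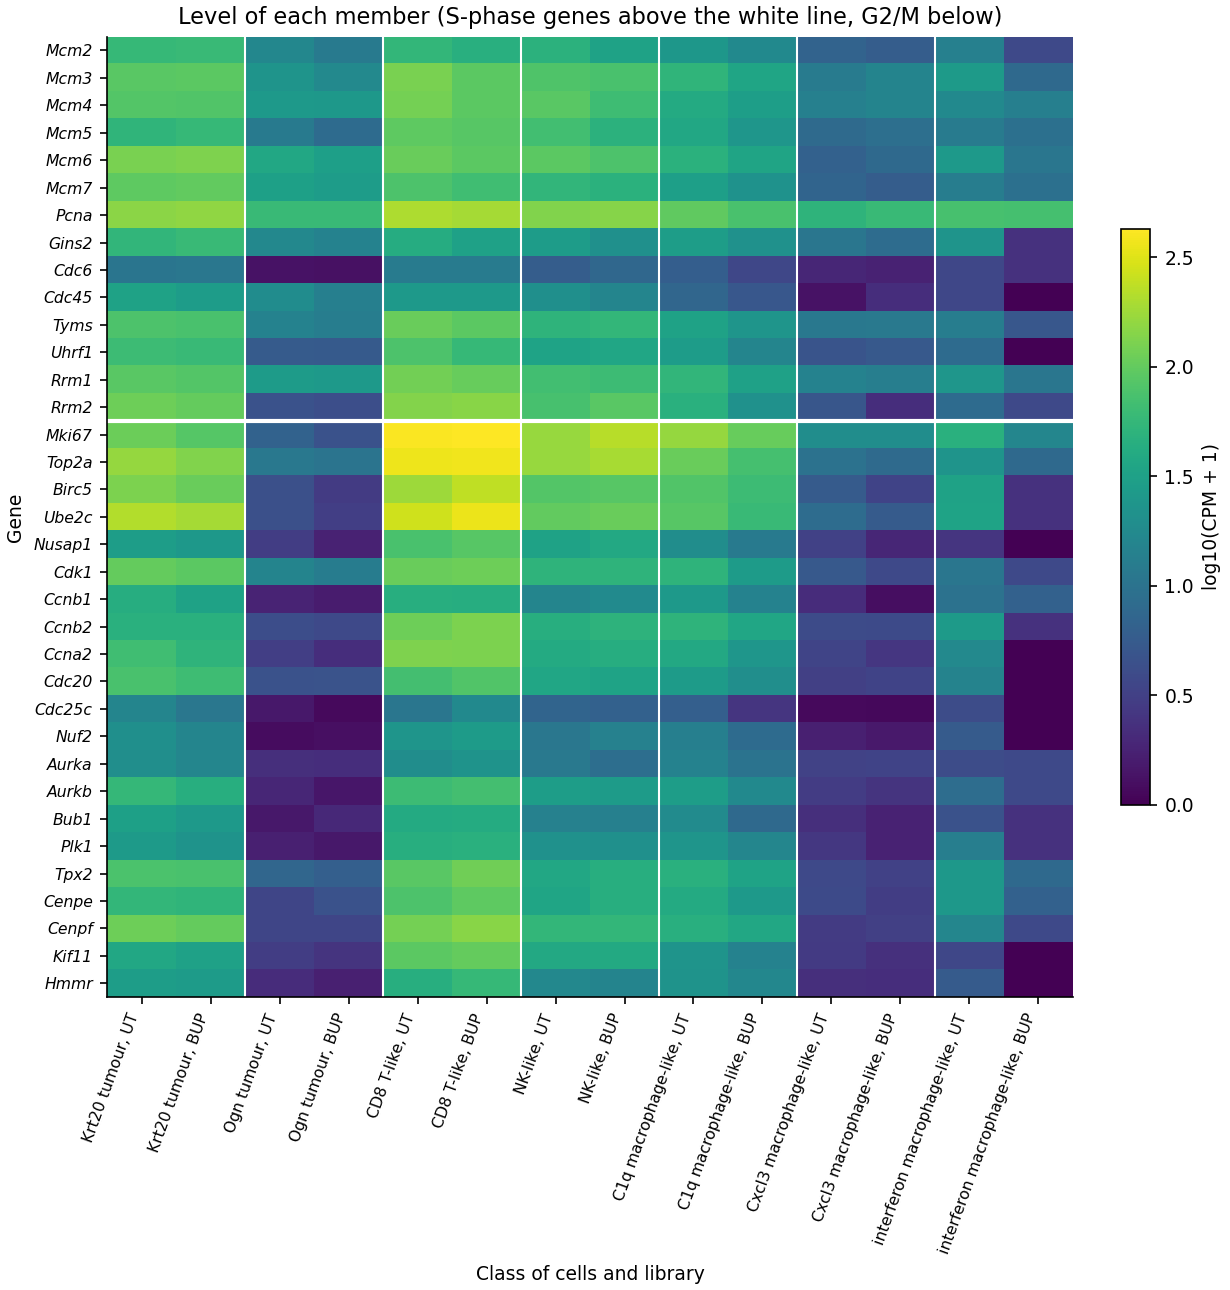
Level of each of the 35 genes (rows) in 7 classes of cells of each library (columns), as log10 of CPM plus 1. S-phase genes are above the white line and G2/M genes below it. The columns of CD8 T-like, Krt20 tumour, NK-like and C1q macrophage-like cells are filled in both lists, and those of Ogn tumour and Cxcl3 macrophage-like cells show low G2/M levels and *Pcna* at between 50.99 and 60.3 CPM, near its level in neutrophil-like cells (51.4 and 47.5 CPM).

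Between pairs of classes, members were counted as higher where the level was at least 1.5-fold higher in both libraries. In the Krt20 against the Ogn tumour cells, all 14 S-phase and all 21 G2/M genes were higher, where 12.2% of all genes compared were higher and 16.5% lower. Their median log2 ratio was 1.80 in UT and 2.28 in BUP for S phase and 4.60 and 4.94 for G2/M. *Mki67*, the gene of the proliferation antigen Ki-67, had 110 and 85.1 CPM in the UT and BUP Krt20 tumour cells and 5.73 and 3.60 CPM in the Ogn tumour cells. *Pcna* was at 148 and 155 CPM against 60.3 and 59.9 CPM, and in the neutrophil-like cells it was at 51.4 (39.99 to 65.0) and 47.5 CPM (35.5 to 62.3). The ratio between the clusters was thus smaller for the clamp gene than for *Mki67*. The C1q against the Cxcl3 macrophage-like cells were compared in the same way, with 13 of 14 S-phase genes (all but *Pcna*) and 21 of 21 G2/M genes higher, where 18.4% of all genes were higher and 5.23% lower. CD8 T-like cells exceeded NK-like cells in 6 of 14 S-phase and 21 of 21 G2/M genes (11.7% of all genes were higher and 7.59% lower), with median log2 ratios of 0.59 and 0.67 for S phase and 1.17 and 1.36 for G2/M. Within the dividing T and NK cluster the G2/M sums were 5467 and 5924 CPM in CD8 T-like cells and 6007 and 5383 CPM in NK-like cells. Without that cluster they were 353 and 266 CPM against 403 and 254 CPM. In both portions CD8 T-like cells were thus below NK-like cells in UT and above them in BUP by value. Between the Krt20 tumour and the CD8 T-like cells, 1 S-phase gene (*Mcm5*) and 8 G2/M genes were lower in the tumour cells and none was higher, where 27.4% of all genes were lower and 29.0% higher. CD8 T-like exceeded C1q macrophage-like cells in 13 S-phase genes (all but *Gins2*) and 20 G2/M genes (all but *Aurka*), where 27.6% of all genes were higher and 24.6% lower. Cell depth differed between these classes, with medians of 32799 and 29683.5 UMIs in Krt20 tumour cells and 7308 and 6620 UMIs in CD8 T-like cells; CPM divides by that total, and its part in these ratios was not tested.

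In tumour cells as a whole, the members were lower in the BUP than in the UT library, the G2/M genes by more than the S-phase genes. The S-phase genes summed to 827 CPM in UT and 638 CPM in BUP (log2 ratio -0.37, -0.40 to -0.35), and the G2/M genes to 1002 and 601 CPM (-0.74, -0.76 to -0.71). At least 1.5-fold lower in BUP were 1 S-phase gene, *Rrm2* (77.3 to 48.4 CPM), and 18 G2/M genes, where 6.69% of all genes compared were, and none was higher (2.58% of all genes). The sum, however, mixed clusters that changed in number, from 522 and 560 to 710 and 1625 cells. When the clusters were given equal weight in both libraries, the log2 ratio was -0.02 for S phase and -0.23 for G2/M. In bulk sums of this kind, fewer dividing cells and less RNA per dividing cell cannot be told apart. Counted by cell after thinning to 2000 UMIs, as described below, 18.6% of UT and 10.2% of BUP tumour cells held at least 2 G2/M UMIs. Such cells had means of 6.33 and 6.29 G2/M UMIs. These shares mix the clusters in the same way as the sum.

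Within the Krt20 tumour cells, the S-phase sum was level between the libraries within counting error and the G2/M sum was lower in BUP. The S-phase sum had a log2 ratio of 0.01 (-0.02 to 0.04) and the G2/M sum one of -0.23 (-0.25 to -0.20). None of the 35 genes passed 1.5-fold, where 3.88% of all genes were lower and 1.35% higher. All 21 G2/M genes nevertheless had a log2 ratio below 0, with a median of -0.25, against -0.07 over all genes, and 8 of 14 S-phase genes had one above 0, with a median of 0.05. The helicase genes *Mcm6* (124 CPM in UT and 130 CPM in BUP) and *Mcm7* (94.5 and 99.8 CPM) were level within counting error, and the activator *Gins2* was higher in BUP (52.6 and 59.3 CPM, log2 ratio 0.17, 0.05 to 0.29). *Rrm2*, a subunit of ribonucleotide reductase, was lower (112 and 101 CPM, -0.16, -0.24 to -0.07). Among the regulators of mitotic entry, *Ccnb1* went from 42.4 CPM in UT to 31.8 CPM in BUP (-0.41, -0.56 to -0.26), *Ccna2* from 65.3 to 51.01 CPM (-0.36, -0.48 to -0.24) and the phosphatase gene *Cdc25c* from 14.8 to 9.92 CPM (-0.57, -0.84 to -0.31). The other B-type cyclin, *Ccnb2*, was at 46.2 and 45.3 CPM (-0.03, -0.16 to 0.11). *Mki67* was at 110 and 85.1 CPM (-0.37, -0.46 to -0.27) and *Top2a*, the topoisomerase that untangles chromosomes, at 162 and 133 CPM (-0.28, -0.36 to -0.21). The spindle genes *Tpx2* (76.5 and 74.6 CPM), *Cenpe* (54.8 and 52.2 CPM) and *Hmmr* (28.4 and 26.6 CPM) had intervals of the ratio that included 0. Macrophage transcripts in these cells, *C1qa*, *C1qb*, *C1qc*, *Apoe* and *Ms4a7* summed, were lower in BUP too (194 and 50.4 CPM), and their part in the G2/M difference was not tested.

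In the Ogn tumour cells the levels were low and the differences small in UMIs. S-phase genes summed to 285 CPM in UT and 248 CPM in BUP (-0.20, -0.27 to -0.13), with 1 of 13 genes of at least 50 UMIs, *Mcm5* (10.99 and 7.33 CPM), past 1.5-fold lower, where 3.74% of all genes were lower and 1.22% higher. Of the G2/M genes only 11 had 50 UMIs over both libraries, and 3 of them, *Mki67*, *Birc5* and *Ube2c*, were lower past 1.5-fold. *Ube2c*, the ubiquitin-conjugating enzyme of the anaphase-promoting complex, was counted 29 times in UT and 53 times in BUP (3.39 and 2.10 CPM). *Cdc6* was counted 3 and 8 times. The neutrophil background was lower in BUP by a larger ratio than the S-phase sum of these cells (log2 ratio -0.86 against -0.20).

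CD8 T-like cells went the other way in the G2/M genes. The S-phase sum was 1290 CPM in UT and 1124 CPM in BUP (-0.20, -0.25 to -0.14), and the G2/M sum 2380 and 2702 CPM (0.18, 0.14 to 0.22). Only *Cdc25c*, on 37 and 92 UMIs, passed 1.5-fold, at 9.71 and 16.8 CPM (0.79, 0.23 to 1.38), where 2.01% of all genes were higher and 6.11% lower. By sign, 19 of 21 G2/M genes were above 0 (median 0.22) and 12 of 14 S-phase genes below it (median -0.21), against a median of -0.07 over all genes. Replication genes lower in BUP were *Mcm3* (124 and 92.8 CPM, -0.42, -0.61 to -0.24), *Mcm4* (118 and 91.4 CPM, -0.37, -0.56 to -0.18), *Gins2* (41.7 and 31.1 CPM) and *Uhrf1* (77.4 and 57.0 CPM, -0.44, -0.68 to -0.21). *Pcna* was at 200 and 187 CPM, with an interval of the ratio from -0.24 to 0.03, and *Rrm2* at 137 and 145 CPM (-0.09 to 0.24). *Mki67* (409 and 426 CPM, 0.06, -0.03 to 0.15), *Top2a* (365 and 373 CPM) and the cyclins *Ccna2* (132 and 128 CPM) and *Ccnb1* (44.1 and 42.2 CPM) were level within counting error. Short of 1.5-fold, genes with an interval above 0 included *Birc5* (176 and 236 CPM, 0.42, 0.29 to 0.56), *Ube2c* (276 and 356 CPM, 0.37, 0.26 to 0.48), *Tpx2* (89.5 and 115 CPM, 0.36, 0.17 to 0.55), *Hmmr* (43.8 and 56.5 CPM, 0.37, 0.09 to 0.65) and *Cenpf* (120 and 145 CPM, 0.28, 0.11 to 0.45). The passenger kinase gene *Aurkb* (62.2 and 68.9 CPM, -0.09 to 0.39) and the spindle motor gene *Kif11* (90.8 and 100.3 CPM, -0.05 to 0.34) had intervals that included 0.

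The direction in CD8 T-like cells rested on 1 cluster. It held T and NK cells together, was led by linker histone genes, *Pclaf* and *Mki67*, and gave 114 UT and 212 BUP cells to the CD8 T-like class by their T markers. In these cells the G2/M genes summed to 5467 CPM in UT and 5924 CPM in BUP (0.12, 0.08 to 0.16) and the S-phase genes to 2061 and 1880 CPM. Without that cluster the remaining 322 UT and 490 BUP cells were lower in BUP in both lists, from 783 to 553 CPM in S phase (-0.50, -0.60 to -0.41) and from 353 to 266 CPM in G2/M (-0.41, -0.55 to -0.27). *Mki67* was then at 75.3 and 43.0 CPM and *Mcm3* at 105 and 62.9 CPM, while *Birc5* (12.6 and 19.3 CPM) and *Ccnb2* (17.8 and 26.3 CPM) were higher in BUP by value, with intervals of -0.05 to 1.30 and 0.00 to 1.14. That cluster is set apart by division, so its removal also removes the cells in which most members are expressed. Other cell types' transcripts also differed within the class, with the CD4 and regulatory T list at 511 and 295 CPM and the macrophage list at 355 and 218 CPM, and their part was not tested.

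In NK-like cells the S-phase sum was lower and the G2/M sum higher in BUP, with fewer members showing the latter. S-phase genes summed to 841 CPM in UT and 767 CPM in BUP (-0.13, -0.21 to -0.06) and G2/M genes to 997 and 1119 CPM (0.17, 0.10 to 0.23). *Mcm2* alone passed 1.5-fold, at 48.1 and 31.6 CPM (-0.61, -0.98 to -0.24), where 4.87% of all genes were lower and 2.18% higher. *Mcm4* (89.7 and 64.5 CPM, -0.48, -0.74 to -0.22) and *Mcm5* (67.4 and 48.4 CPM, -0.48, -0.78 to -0.18) were lower too, while *Pcna* (136 and 142 CPM) and *Tyms*, which makes thymidylate (50.6 and 54.6 CPM), were level within counting error. Of the G2/M genes, *Mki67* was at 168 and 223 CPM (0.41, 0.25 to 0.57) and *Top2a* at 165 and 191 CPM (0.22, 0.05 to 0.38). The other 18 genes of at least 50 UMIs had intervals that included 0, such as *Birc5* (83.2 and 86.8 CPM) and *Cdk1* (50.4 and 50.1 CPM). The median over 20 G2/M genes was 0.08, with 7 of them below 0, below the ratio of the sum, to which *Mki67* and *Top2a* added most. The dividing T and NK cluster gave 34 and 39 cells to this class, and in them the G2/M sum was itself lower in BUP (6007 and 5383 CPM, -0.16, -0.24 to -0.08). Without it the sums of the remaining 504 and 355 cells were lower too, from 660 to 471 CPM in S phase (-0.49, -0.59 to -0.39) and from 403 to 254 CPM in G2/M (-0.66, -0.80 to -0.53). The G2/M sum was thus lower in each portion of the class and higher in the whole, in which the dividing cluster held 34 of 538 UT and 39 of 394 BUP cells. Neutrophil transcripts in NK-like cells stood at 385 and 1169 CPM, and their part was not tested.

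Macrophage-like cells were lower in BUP in both lists. Over the 3 clusters the S-phase genes summed to 368 CPM in UT and 237 CPM in BUP (-0.64, -0.69 to -0.58) and the G2/M genes to 574 and 299 CPM (-0.94, -0.99 to -0.89). At least 1.5-fold lower were 11 of 14 S-phase genes and 21 of 21 G2/M genes, where 5.67% of all genes were lower and 3.41% higher. The clusters given equal weight had log2 ratios of -0.45 and -0.62, which were smaller and of the same sign. The neutrophil background was lower in BUP too, with log2 ratios of -0.86 for S phase and -0.72 for G2/M.

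The C1q macrophage-like cells held most of these UMIs and were lower in BUP in every member. Their S-phase genes summed to 523 CPM in UT and 348 CPM in BUP (-0.59, -0.65 to -0.52) and their G2/M genes to 919 and 606 CPM (-0.60, -0.65 to -0.55), and 6 and 12 genes were past 1.5-fold lower, where 4.11% of all genes were lower and 3.99% higher. *Rrm2* went from 45.9 to 20.4 CPM (-1.17, -1.45 to -0.91), *Uhrf1* from 27.7 to 14.6 CPM (-0.92, -1.26 to -0.60) and *Rrm1* from 52.3 to 31.3 CPM (-0.74, -0.97 to -0.52). *Pcna* was the S-phase gene with the smallest difference, at 97.5 and 74.5 CPM (-0.39, -0.54 to -0.24). Among the kinases, *Bub1* of the spindle checkpoint went from 17.4 to 6.998 CPM (-1.31, -1.80 to -0.86) and *Cdk1* from 50.2 to 27.1 CPM (-0.89, -1.14 to -0.66). *Cdc25c* was counted 94 times in UT and 10 times in BUP (5.33 and 1.56 CPM, -1.78, -2.88 to -0.83). *Mki67* was at 161 and 104 CPM (-0.63, -0.75 to -0.51), and *Birc5* (81.8 and 62.2 CPM) and the kinetochore gene *Cenpf* (44.9 and 37.2 CPM, -0.27, -0.49 to -0.06) differed least among the G2/M genes. Macrophage markers were level in these cells (21272 and 21488 CPM), and the neutrophil list was higher in BUP (1448 and 4253 CPM), whose part was not tested.

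The Cxcl3 macrophage-like cells showed no such difference in S phase, with 143 CPM in UT and 151 CPM in BUP (0.08, -0.03 to 0.19). Of 12 S-phase genes with at least 50 UMIs, *Rrm2* was lower past 1.5-fold (45 and 9 UMIs, 4.03 and 1.19 CPM, where 3.43% of all genes were lower and 2.32% higher). *Pcna* was at 50.99 and 59.1 CPM (0.21, 0.03 to 0.39). Their G2/M genes had 826 and 443 UMIs in all (73.9 and 58.8 CPM, -0.33, -0.50 to -0.16), below the neutrophil background. Of 6 G2/M genes of at least 50 UMIs, *Birc5* (53 and 18 UMIs), *Ube2c* (84 and 35 UMIs) and *Cdk1* (49 and 21 UMIs) were lower past 1.5-fold, with a median log2 ratio of -0.48 over the 6, and *Mki67* was at 18.7 CPM in both libraries. The class held 11179257 UMIs in UT and 7533483 in BUP, so the filter of 50 UMIs over both favours genes that are high in UT. The interferon cluster had 604 G2/M UMIs in UT and 42 in BUP (314 and 58.5 CPM, -2.43, -2.91 to -1.97) from 191 and 68 cells. Only 4 S-phase and 6 G2/M genes had at least 50 UMIs there. Of these, 3 and 6 were past 1.5-fold lower, where 7.71% of all genes were lower and 4.93% higher. That cluster held 1921401 UMIs in UT and 718423 in BUP, so the filter favours genes high in UT there too. *Birc5*, *Ube2c* and *Ccnb2* passed it on 61, 62 and 50 UMIs in UT, with 1 each in BUP. These counts of genes therefore add nothing to the lower sum. *Mki67* was counted 88 and 11 times there (-1.58, -2.63 to -0.67), while the interval of *Cdk1*, at 19 and 2 UMIs, included 0. Transcripts of other cells differed in this cluster too, with the erythroid list at 7.29 and 967 CPM, the neutrophil list at 1534 and 2787 CPM, the NK list at 127 and 40.4 CPM and the T list at 81.2 and 174 CPM, and their part was not tested.

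**Figure D3:**
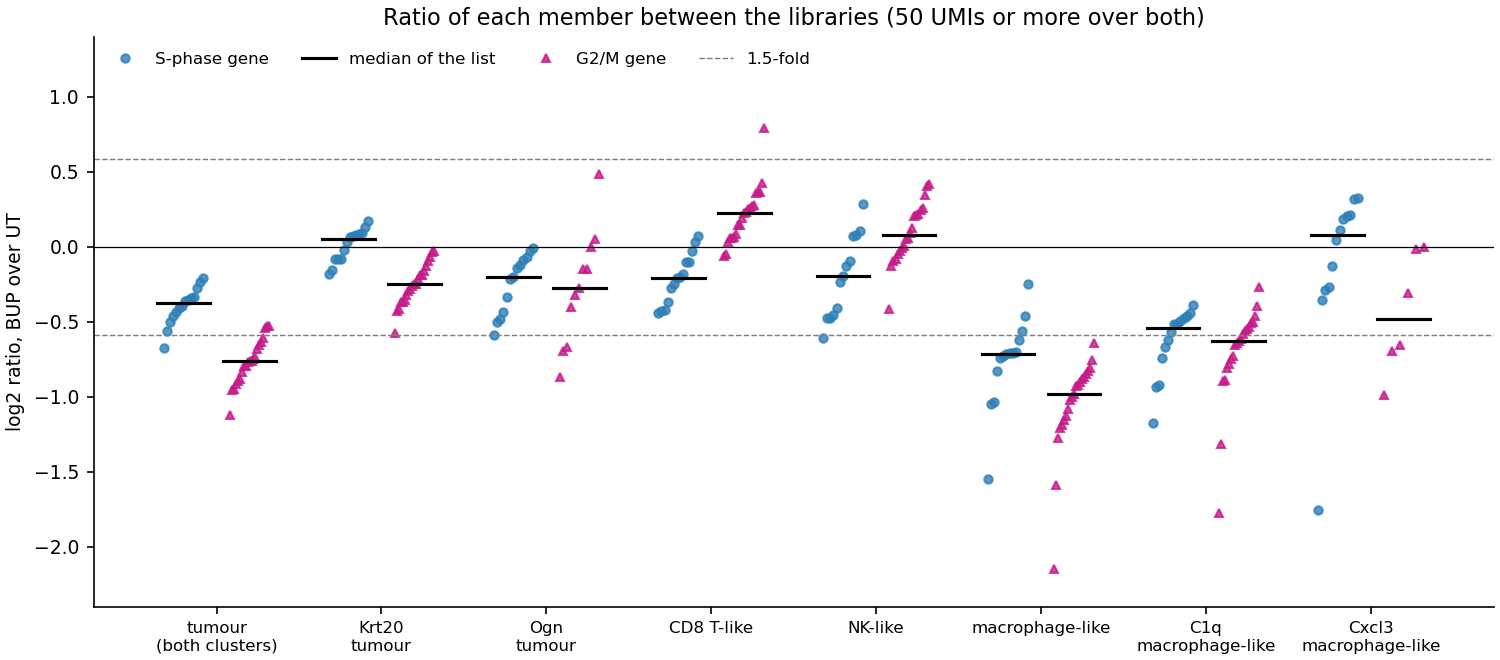
Log2 ratio of BUP over UT for each gene with at least 50 UMIs over both libraries, by class of cells; circles are S-phase genes, triangles G2/M genes, black bars the median of each list and dashed lines 1.5-fold. The G2/M medians were -0.76 in tumour cells, -0.25 in the Krt20 cluster, 0.22 in CD8 T-like cells and -0.98 in macrophage-like cells.

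Summed CPM does not say how many cells carry the transcripts, so cells were also counted. For this, 2000 UMIs were drawn at random from each cell, which was called positive for a list with at least 2 UMIs of it. The background came from the 278 UT and 226 BUP neutrophil-like cells of at least 2000 UMIs, which were positive for S phase in 3.96% and 0.885% and for G2/M in 3.96% and 1.77%. The other 341 and 198 neutrophil-like cells were too shallow, the median over all of them being 1882 and 2127 UMIs. Krt20 tumour cells were positive for S phase in 45.6% in UT and 39.8% in BUP (difference -5.85 points, -11.6 to -0.12) and for G2/M in 36.4% and 30.6% (-5.77 points, -11.2 to -0.31). Ogn tumour cells had 9.29% and 7.46% for S phase. Their 1.49% and 1.18% for G2/M were below the background by value only, since the intervals overlapped in both libraries. In the CD8 T-like cells the S-phase share was 42.4% and 36.1% (-6.33 points, -12.4 to -0.23), and the G2/M share 36.5% and 36.4%, with a difference between -6.08 and 5.94 points. The NK-like cells had 33.8% and 28.3% for S phase (-12.2 to 1.30 points) and 18.8% in both libraries for G2/M (-5.67 to 5.87 points). C1q macrophage-like cells had 19.5% and 13.5% for S phase (-5.99 points, -9.79 to -1.90) and 22.2% and 15.01% for G2/M (-7.17 points, -11.1 to -2.92). Cxcl3 macrophage-like cells had 3.65% and 3.55% for S phase and 2.20% and 1.35% for G2/M. Their intervals overlapped those of the background in each case, so they could not be placed above or below it. Thinning left out 19 UT and 32 BUP cells of the CD8 T-like class, 97 and 65 NK-like cells, 83 and 32 macrophage-like cells and 27 and 20 tumour cells. Without thinning the G2/M share was 59.4% and 49.3% in CD8 T-like cells, 33.8% and 28.7% in NK-like cells and 48.7% and 33.9% in tumour cells.

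**Figure D4:**
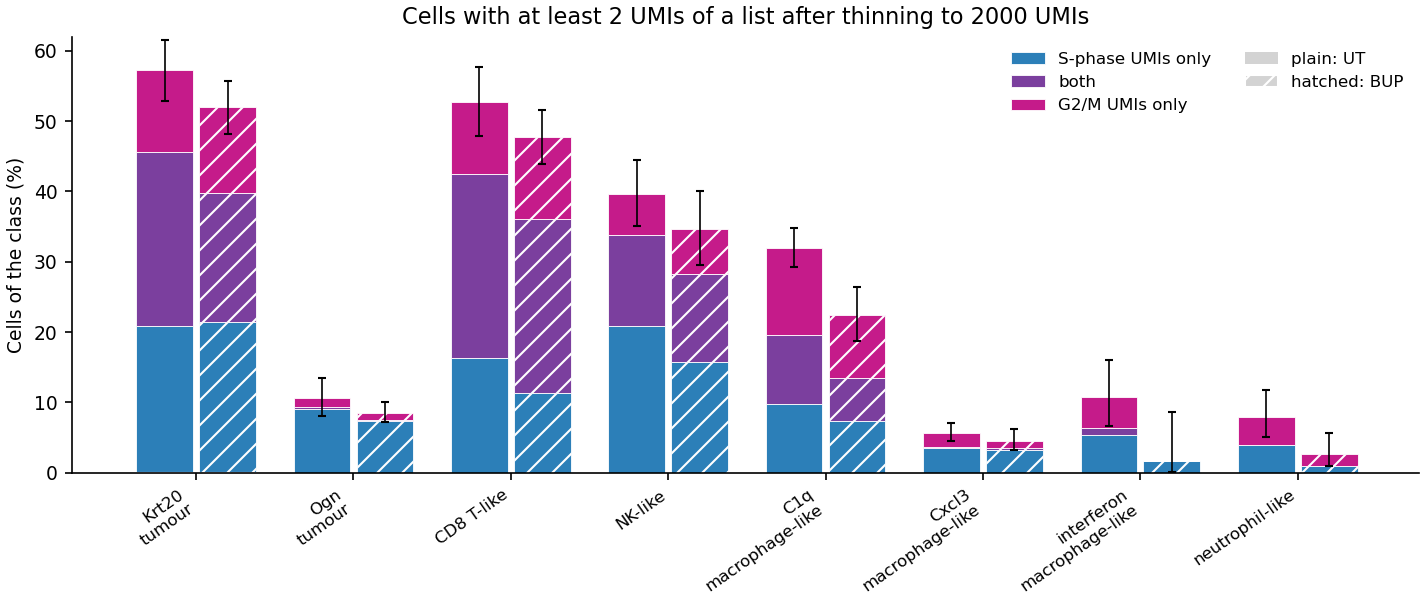
Share of cells in each class with at least 2 UMIs of the S-phase genes only, of both lists, or of the G2/M genes only, after thinning to 2000 UMIs; plain bars are UT, hatched bars BUP, and black bars the exact 95% interval of the whole. The whole was 57.3% and 52.0% in Krt20 tumour cells, 52.8% and 47.8% in CD8 T-like cells and 32.0% and 22.4% in C1q macrophage-like cells.

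Many positive cells carried both lists, in shares that differed by class. Of the G2/M-positive cells, 71.7% in UT and 68.0% in BUP were also S-phase positive in the CD8 T-like class, 68.7% and 66.1% in the NK-like class and 68.1% and 60.2% in the Krt20 tumour cells, against 43.8% and 40.8% in the C1q macrophage-like cells. A positive CD8 T-like cell held a mean of 9.23 G2/M UMIs in UT and 10.8 in BUP of 2000, and a positive tumour cell 6.33 and 6.29. In CD8 T-like cells the higher G2/M sum of BUP came with a like share of positive cells and, by value, more G2/M UMIs in each. That share joined a lower one outside the dividing cluster (13.8% and 9.11%) to a larger part for the cluster, which gave 110 of 152 positive cells in UT and 202 of 244 in BUP, so the mean per positive cell was taken over more cluster cells in BUP. The calls are not phases of the cycle, since transcripts outlast the phase in which they are made and free RNA adds UMIs.

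*Rrm2* correlated more with the G2/M list than with its own list from cell to cell, and in some classes other S-phase genes did too. Over cells of at least 5000 UMIs thinned to that depth, as log of UMIs plus 1, its correlation with the G2/M sum was 0.60 in 785 CD8 T-like cells, 0.68 in 518 NK-like cells and 0.58 in 3278 tumour cells, against 0.50, 0.45 and 0.47 with the other S-phase genes summed. *Pcna*, for comparison, had 0.18, 0.27 and 0.30 with the G2/M sum and 0.35, 0.47 and 0.40 with the other S-phase genes. In 3436 macrophage-like cells *Rrm2* had 0.42 with the G2/M sum and 0.39 with the other S-phase genes. *Tyms* also had more with the G2/M sum in NK-like cells (0.43 against 0.40) and in macrophage-like cells (0.29 against 0.24). So did *Cdc45* in NK-like cells (0.31 against 0.29) and *Rrm1* in macrophage-like cells (0.33 against 0.29). Cells of both libraries share these values, and cells are not replicates, so they describe these cells only. *Rrm2* was also the S-phase gene with the lowest ratio of BUP to UT in tumour and in C1q macrophage-like cells. Among S-phase genes of at least 50 UMIs it had the highest ratio in CD8 T-like cells and, at 73.2 and 89.2 CPM, in NK-like cells.

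Other genes of the cycle, from lists that hold no member, were counted in the same way. Of 28 genes of the spindle, kinetochore and cytokinesis, 14 were at least 1.5-fold lower in BUP in tumour cells (median log2 ratio -0.62), and 16 in macrophage-like cells (-0.65), where 6.69% and 5.67% of all genes were lower. In CD8 T-like cells none was lower, 24 had a ratio above 0 (median 0.21) and 1 was higher past 1.5-fold (2.01% of all genes were). That gene was *Cks2*, a small subunit of Cdk complexes (160 and 263 CPM, 0.71, 0.58 to 0.85), and the lowest ratio was that of *Ncapd2*, a condensin subunit (62.2 and 48.8 CPM). Of 19 genes of origin licensing and firing, 11 were at least 1.5-fold lower in macrophage-like cells, 2 in tumour cells and 1 in CD8 T-like cells, the last 2 counts being near the share of all genes (6.69% and 6.11%). The E2F and pocket protein list had *E2f8*, a repressor that is itself expressed in S phase, at 32.7 and 18.3 CPM in tumour cells (-0.84) and *Rb1* at 42.2 and 59.1 CPM (0.49). Of 8 genes of CDK inhibitors, 7 had a ratio below 0 in macrophage-like cells (median -0.48). Of the 8, 3 were at least 1.5-fold lower, where 5.67% of all genes were, and none was higher past 1.5-fold. The 1 above 0 was *Cdkn1a*, which encodes p21, at 536 and 697 CPM (0.38). It was at 354 and 443 CPM in the C1q cluster, while in Krt20 tumour cells it was at 259 and 201 CPM (-0.36). *Cdkn2a* was seen mainly in CD8 T-like cells (43.6 and 50.6 CPM, 0.22, -0.07 to 0.50). In macrophage-like cells it was counted 141 and 29 times (4.59 and 1.98 CPM, -1.22), and in tumour cells only 6 and 12 times. Among the replication histones, *H2ac10* was at 17.6 and 28.9 CPM in CD8 T-like cells (0.71, 0.29 to 1.15) and at 5.16 and 2.33 CPM in C1q macrophage-like cells (-1.15).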

How the data were processed

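Dissociated tumour cells of UT and BUP were sequenced with the 10x 5′ v2 chemistry, 1 library per group. Per the labels and file headers, the authors aligned reads and made UMI counts per gene and barcode with Cell Ranger 8.0.1 on GRCm39 (the study's methods name another version), and deposited filtered matrices of raw counts; Seurat 5.0.1 is also named. The deposited counts were used as they stand. Barcodes of over 100 UMIs and under 20% mitochondrial counts were kept, which removed 393 UT and 445 BUP barcodes. Cells were clustered in Seurat 5.3.0 (R 4.3.3) on 2000 variable genes without 272 cell-cycle genes (20 components, resolution 0.5), with no integration. Clusters with *Ptprc* in at least 30% of cells were taken as immune and clustered again, and were named from marker lists. 1 cluster of dividing T and NK cells was split per cell by T against NK markers. Clusters mixed by their markers stayed out of the classes. Doublets were scored with Scrublet (scanpy 1.11.5) and not removed, since its automatic call did not work in the UT library, and leaving out the top 6% of scores was an alternative.

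Counts of UMIs were summed per library and class and divided by the class total (CPM), with exact Poisson intervals and exact conditional intervals of ratios, computed with scipy 1.17.1, numpy 2.4.6 and pandas 2.3.3 under Python 3.11.15. Features of at least 50 UMIs over both libraries were counted as lower or higher past 1.5-fold. Shares used cells thinned to 2000 UMIs, at least 2 UMIs of a list, and exact binomial intervals combined by the Newcombe method for differences. On simulated counts of 9777 genes in CD8 T-like cells, the known ratio lay within the interval for 98% of genes changed 1.5-fold, 97% of those changed 2-fold and 95.6% of unchanged genes. These counts were drawn independently, as the interval assumes. The simulation therefore checks the computation only, and cannot show whether the intervals hold for UMIs gathered in few cells. Any member could be named, and of the other cell-cycle lists the genes with the highest and lowest ratio in each class among those of at least 100 UMIs, with *Cdkn2a* and *Cdkn2b* in addition. The members and lists were chosen with earlier results of these data known. Alternatives changed the filters, the scaling, the lists, the clustering and the composition of the classes.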

Additional observations from a re-analysis of the deposited data

Results flagged for a closer look

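The G2/M sum had opposite signs between classes of the same libraries. On the log2 scale, BUP over UT was above 0 in CD8 T-like cells and below 0 in tumour cells, a difference of 0.92, and below 0 in macrophage-like cells, a difference of 1.12. For NK-like cells the differences were 0.90 from tumour cells and 1.11 from macrophage-like cells. With 1 library per group these differences were not tested, and the sign in CD8 T-like and NK-like cells turned without the dividing T and NK cluster.

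Cells outside the described classes also held G2/M transcripts above the neutrophil background. Over both libraries the sum was 1255 CPM in cDC1-like dendritic cells (1808 in UT and 810 CPM in BUP), 819 CPM in a cluster led by *Xkr4*, 443 CPM in regulatory and other T-like cells (367 and 531 CPM) and 461 CPM in erythroid-like cells, on 66 and 68 UMIs, of which *Ube2c* alone held 22 and 48 and *Nusap1* 5 and 12, while *Cdk1*, *Ccnb1*, *Cdc20* and *Aurkb* had 0. Clusters with markers of more than 1 type had 1008 CPM (mixed T and macrophage) and 746 CPM (mixed tumour and immune), where 45.3% and 94.3% of UT cells had high doublet scores.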

How the results depend on the processing

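No paired analysis was possible because each group is 1 library, and no library could be left out for the same reason. Among the list sums of the 4 classes, 39 alternatives stayed within the counting interval, 33 left it with the sign kept and 2 turned the sign. Without the dividing T and NK cluster, chosen after seeing the data, the G2/M log2 ratio was -0.41 in CD8 T-like and -0.66 in NK-like cells, and the S-phase ratio -0.50 and -0.49. With clusters at equal composition, also chosen after seeing the data, tumour cells had -0.023 (S phase) and -0.23 (G2/M) and macrophage-like cells -0.45 and -0.62. With the mixed T and macrophage cluster added, CD8 T-like cells had -0.073 and 0.14. Median-ratio scaling gave -0.33 and -0.69 in tumour cells, -0.14 and 0.24 in CD8 T-like cells and -0.54 and -0.85 in macrophage-like cells. Thinned cells gave -0.58 and -0.80 in tumour cells, -0.54 and -0.71 in macrophage-like cells and -0.30 for S phase in NK-like cells. Seurat's own lists gave -0.32 and -0.46 in tumour cells, -0.12 and 0.22 in CD8 T-like cells, -0.036 for S phase in NK-like cells and -0.44 and -0.43 in macrophage-like cells. Without the most abundant member the S-phase ratio was -0.40 in tumour and -0.76 in macrophage-like cells. Without high doublet scores it was -0.40 in tumour cells, and the G2/M ratio 0.065 in NK-like cells. With cell-cycle genes among the variable genes, the G2/M ratio was -0.70 in tumour and -1.02 in macrophage-like cells, and a stricter cell filter gave -0.99 in the latter. The S-phase share of CD8 T-like cells thinned to 5000 UMIs differed by 0.53 points (69.1% and 69.6%), against -6.33 at 2000 UMIs. At 2-fold, 1 member was lower in tumour cells and 13 in macrophage-like cells, against 19 and 32 at 1.5-fold, and none was higher in CD8 T-like or lower in NK-like cells, against 1 and 1. At the lowest fold tried, 32 were lower in tumour cells, 4 lower and 5 higher in CD8 T-like cells, and 6 lower and 3 higher in NK-like cells. Beyond the changed construction of each alternative, the cause was not tested.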
